A study of Mus musculus with 12 samples.

Results

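Messenger RNA of the mouse cerebral cortex was compared between embryonic day 17 (E17) and embryonic day 13 (E13), as 3 libraries at E17 against 3 at E13, out of 12 libraries in the series. The 6 libraries were chosen by the age in their titles, and every gene counted in them was a candidate: of 50600 gene identifiers, 17847 had enough reads to be tested. Animals were C57BL/6 mice at both ages with no treatment or mutation named. Each library was made from the cortex of 1 embryo, and the 3 embryos of an age came from 3 litters. The series also holds 3 libraries each from E11 and from postnatal day 1 (P1), and its title concerns zinc uptake and storage during formation of the cortex. The genes described here are those outside that subject.

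Between these ages the cortex passes from a sheet dominated by dividing radial glia, which line the ventricle and produce neurons, to a layered plate of postmitotic neurons that extend axons and begin to form synapses. Deep-layer neurons are made before upper-layer neurons, interneurons enter from the ventral telencephalon, and glial lineages start to appear late in this interval. RNA from whole cortex sums over all of these cells, so that fewer cells of a type and less RNA per cell cannot be told apart.

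The E17 libraries A, B and C held 28173745, 29845843 and 45858712 counts and the E13 libraries 35276008, 33581400 and 30767486. Levels are given as counts per 1000000 of the scaled library (CPM), differences as log2(E17/E13) with the standard error of the fit (SE), and a gene was called when its adjusted p in edgeR's quasi-likelihood test was under 0.05. The summed level of 12 markers of the dorsal telencephalon overlapped between the ages, at 2922 to 3487 CPM at E17 and 2833 to 3245 CPM at E13. Of 15 genes that mark brain regions caudal to the telencephalon, 13 had too few reads to test, and the summed level of all 15 was 0.609 to 0.72 CPM at E17 and 1.3 to 2.14 CPM at E13. Markers of tissues attached to the cortex differed between the ages. The summed level of 10 meningeal fibroblast markers was 36.2 to 48.1 CPM at E17 and 901 to 1239 CPM at E13, with all 10 called lower and none at 0 in every E17 library. For 8 choroid plexus markers the sum was 1.13 to 9.42 CPM at E17, highest in E17 B, and 404, 359 and 44.1 CPM in the E13 libraries, lowest in E13 C, with 7 called lower. Red cell markers summed to 122 to 250 CPM at E17 and 673 to 1576 CPM at E13, with 6 of 9 tested called lower and Hbb-bh1 at 0 in every E17 library.

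Most of the transcriptome differed between E17 and E13. Of the 17847 tested genes 13174 (73.8%) were called, 6564 (36.8%) higher and 6610 (37.0%) lower at E17. Every count of called list members in the text is to be read against these shares. With scaling by library size alone the split was 5407 higher and 8183 lower, and the median log2 difference of all genes was -0.22, against -0.04 with the scaling used here. At least 2-fold differences were called for 3364 genes higher (18.8%) and 2765 lower (15.5%), and at least 16-fold differences for 332 higher and 169 lower. The libraries of the 2 ages did not overlap for 13589 genes (76.1%). Of the 4673 genes without a call, 1523 lay under 1 CPM at both ages and 1621 had an SE under 0.1.

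As another measure of size, 22.7 to 26.5% of all counts would have to move between genes to turn an E17 library into an E13 library. Within an age this share was 2.73 to 3.9% at E17 and 2.66 to 6.13% at E13. E13 B stood apart from the other E13 libraries, at 6.13 and 5.21% from A and C against 2.66% between A and C, and in all 3 comparisons it was nearer to the E17 library than E13 A and C were. E13 B also had the highest E13 sum for potassium channel, sodium channel and transmitter release genes. On the first principal component of the 6 libraries, which carried 88.7% of their variance, the ages lay apart, at 86.7 to 96.4 for E17 and -97.9 to -84.4 for E13.

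**Figure D1:**
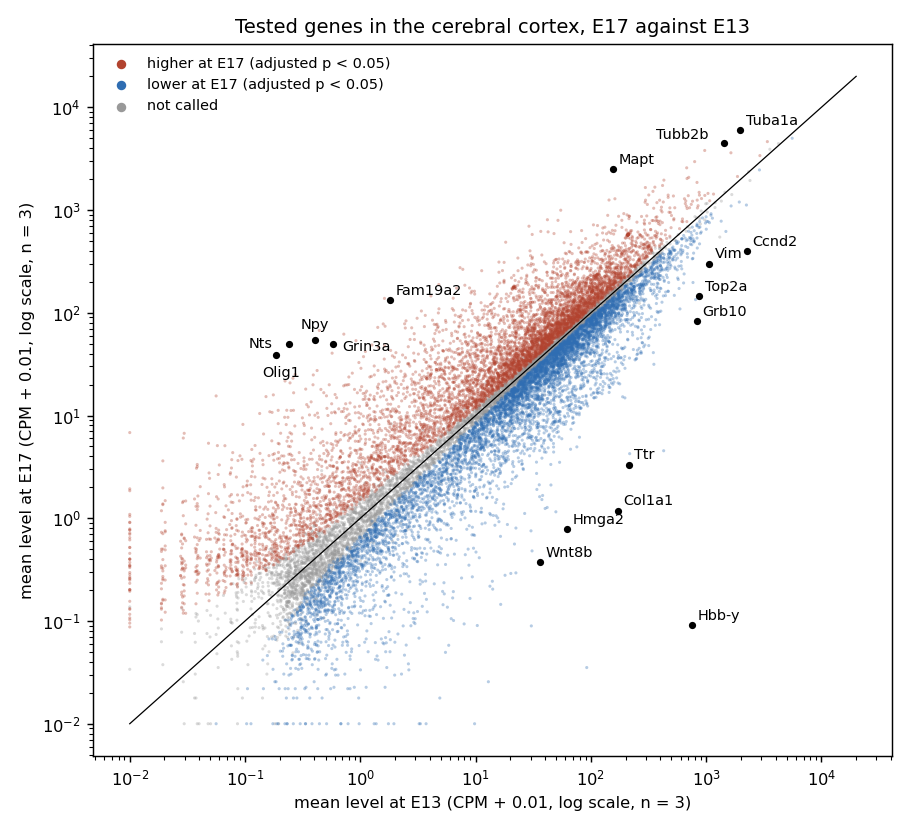
Mean level of each tested gene at E17 (vertical) against E13 (horizontal), in CPM plus 0.01 on log axes, n = 3 libraries per age; the line marks equal levels. Red genes were called higher at E17 (6564) and blue genes lower (6610), and the named genes are among those described in the text.

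Nearly all of the 10 largest gains in level were those of tubulins and of proteins that act on microtubules or in growth cones. Tuba1a, an alpha-tubulin, had 5974, 6195 and 5766 CPM at E17, against 1937, 1965 and 2046 CPM at E13, a log2 difference of 1.59 ± 0.05 (edgeR, adjusted p = 1.61e-11). Per kilobase of exon it was the third most abundant gene at E17. Mapt, which encodes the microtubule-binding protein tau, had 2466, 2675 and 2369 CPM at E17 and 133, 186 and 152 CPM at E13, a log2 difference of 4.0 ± 0.13. The other 8 of the 10 largest gains were the beta-tubulins Tubb2b and Tubb3, the microtubule-binding Map1b, Map2 and Dcx, the collapsin response mediators Dpysl3 and Crmp1 that act in growth cones, and Nsg2, a neuronal protein of endosomes. Over all 10 genes the log2 differences were 1.14 to 4.0.

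The 10 largest losses in level included genes of dividing progenitors and genes of other roles. Ccnd2, the D-type cyclin that drives progenitors into the cell cycle, had 450, 340 and 404 CPM at E17 and 2410, 2035 and 2300 CPM at E13, a log2 difference of -2.5 ± 0.15 (edgeR, adjusted p = 1.14e-08). Grb10, an imprinted adaptor of growth factor receptors, had 84.1, 71.1 and 92.3 CPM at E17 and 863, 772 and 872 CPM at E13 (log2 difference -3.34 ± 0.09). Vim, the intermediate filament of radial glia, averaged 301 ± 16.3 CPM at E17 and 1065 ± 29.3 CPM at E13 (SD, n = 3 each). The others were Nedd4, a ubiquitin ligase, Pkm, the glycolytic pyruvate kinase, Top2a and Mki67 of dividing cells, Hnrnpa2b1 and Hnrnpu, which bind nuclear RNA, and the embryonic globin Hbb-y. Nedd4 had 1146, 1049 and 1161 CPM at E17 and 2252, 2168 and 2286 CPM at E13.

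By ratio, the largest rises were ranked among genes averaging 20 CPM or more at either age. Olig1, a transcription factor of the oligodendrocyte lineage, had 40.9, 52.2 and 23.7 CPM at E17, against 0.106, 0.0842 and 0.339 CPM at E13, a log2 difference of 7.8 ± 0.53 (edgeR, adjusted p = 2.11e-07). Npy, a neuropeptide of interneurons, had 62.6, 53.4 and 46.3 CPM at E17 and 0.317, 0.253 and 0.617 CPM at E13 (log2 difference 7.11 ± 0.23). Nts, the neurotensin precursor, varied at E17, with 35.9, 92.3 and 20.3 CPM, and stayed under 0.5 CPM at E13. The NMDA receptor subunit Grin3a had 38.3, 64.8 and 45.0 CPM at E17 and 0.45, 0.449 and 0.802 CPM at E13, and the calcium-binding Caln1 143, 155 and 116 CPM at E17 and 1.38, 1.91 and 1.54 CPM at E13. Further large rises were those of Stum, the Ras exchange factor Rasgrf2, the guanine deaminase Gda, Nwd2 and the secreted Fam19a2, with log2 differences of 6.21 to 7.29. That the ages do not overlap was a condition for naming these genes.

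The 12 largest falls were ranked under the same limit of 20 CPM. Hbb-y, a globin of embryonic red cells, had 0.114, 0.0358 and 0.0938 CPM at E17, against 791, 399 and 1087 CPM at E13, a log2 difference of -13.11 ± 1.19 (edgeR, adjusted p = 9.01e-06). Col1a1 and Col3a1, fibrillar collagens, and Lum and Lox, which organise and crosslink collagen, had log2 differences of -6.16 to -7.14. Col1a1, Col3a1 and Lum are themselves among the meningeal markers summed above, and the part of attached meninges in their fall was not tested. Cldn11, a claudin of tight junctions, had 0.0379, 0.107 and 0.0938 CPM at E17 and 34.1, 25.2 and 32.0 CPM at E13.

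Wnt8b, a Wnt ligand of the cortical hem, the signalling centre at the medial edge of the cortex, had 0.114, 0.931 and 0.0469 CPM at E17 and 48.1, 23.9 and 37.2 CPM at E13 (log2 difference -6.8 ± 0.64). Hmga2, a chromatin protein of early progenitors, had 0.757, 0.465 and 1.1 CPM at E17 and 71.0, 32.3 and 84.6 CPM at E13 (log2 difference -6.25 ± 0.52). Ttr, the transthyretin of choroid plexus, and Clic6 had much less RNA in E13 C (24.3 and 6.17 CPM) than in E13 A and B (290 to 322 and 26.0 to 34.9 CPM). Limma-voom did not call Ttr (adjusted p = 0.065). The others were Hba-x, an embryonic globin, and Crabp2, which binds retinoic acid.

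**Figure D2:**
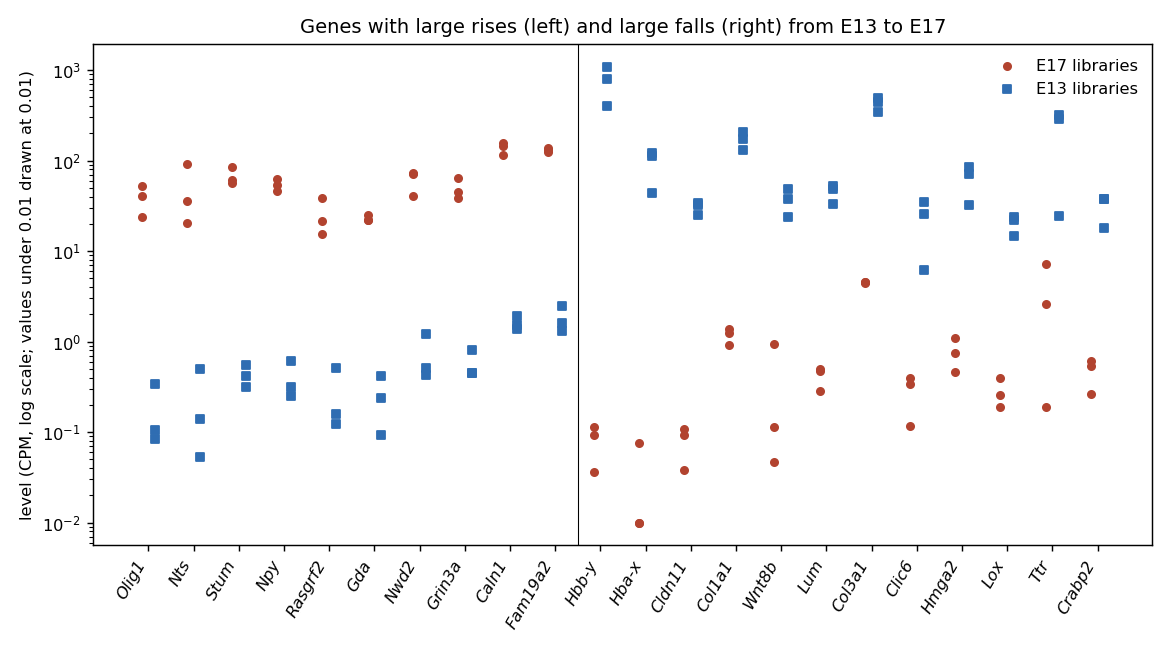
Level (CPM, log axis) of 10 genes with large rises and 12 with large falls at E17, of those averaging 20 CPM or more at either age; red circles are the 3 E17 libraries and blue squares the 3 E13 libraries. Genes were drawn only where the ages did not overlap; within E17 the libraries of Ttr (0.188 to 7.16 CPM) and Wnt8b (0.0469 to 0.931 CPM) lie far apart.

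Few expressed genes were on at 1 age and at or near 0 at the other. When a gene had to average 5 CPM or more at either age and no more than 3 counts in total at the other, 3 genes were found at E17 and 3 at E13. Dsc3, a desmosomal cadherin, had 658 counts at E17 and 0 at E13, which against a floor of 3 counts over the E13 libraries is at least 239-fold higher. Sox10, a transcription factor of the oligodendrocyte lineage, had 563 counts at E17 and 2 at E13, and the noncoding B230209E15Rik 626 counts at E17 and 2 at E13. In the other direction Cckar, a cholecystokinin receptor, had 2 counts at E17 and 1369 at E13, and the embryonic globins Hba-x and Hbb-bh1 had 2 and 0 counts at E17 and 9748 and 1031 at E13. Counting error alone is covered by the bound.

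The genes of cell division fell as a block. All 30 tested genes of mitosis and the kinetochore were called lower, against 37.0% of all tested genes, with a median log2 difference of -2.6 against -0.04 for all genes. Their log2 differences lay between -2.94 and -1.98. Their summed level was 1046, 774 and 1091 CPM at E17 and 6021, 5360 and 6152 CPM at E13. Cdc20, which activates the anaphase-promoting complex, had 22.6, 15.3 and 24.3 CPM at E17 and 160, 133 and 159 CPM at E13 (log2 difference -2.85 ± 0.14; edgeR, adjusted p = 2.9e-09). Kif20a, a kinesin of cytokinesis, and Bub1, a kinase of the spindle checkpoint, had log2 differences of -2.94 ± 0.15 and -2.93 ± 0.12. In all 30 genes E17 B was the lowest library.

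DNA replication fell over a wider range. All 32 genes were called lower, with a median of -2.08 and a range of -3.54 to -0.63, and their sum was 1028, 881 and 1099 CPM at E17 and 4289, 3630 and 4376 CPM at E13. Orc1, the subunit of the origin recognition complex whose level cycles, had 0.682, 1.22 and 1.41 CPM at E17 and 13.4, 11.3 and 15.1 CPM at E13 (log2 difference -3.54 ± 0.19). Tk1, thymidine kinase, and Cdc6, which loads the MCM helicase, had log2 differences of -3.04 ± 0.14 and -2.92 ± 0.14. All 20 DNA repair genes were lower as well, with a median of -1.75, led by the exonuclease Exo1 at -3.18 ± 0.1 and the recombination factor Rad54l at -2.96 ± 0.1.

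Chromatin genes followed. All 20 genes of a list of replication-coupled chromatin assembly were lower, with a median of -1.44. The list is wider than its name and also holds the Polycomb genes Ezh2, Suz12 and Eed, the condensin genes Smc2 and Smc4, and Hdac1. Its largest falls were the histone chaperone Asf1b and the remodeller Hells at -2.85 each and Uhrf1, which guides maintenance of DNA methylation, at -2.69 ± 0.11. Of 11 high-mobility-group (HMG) chromatin proteins, 10 were lower. Hmgb2, a progenitor HMG protein, had 41.1, 33.9 and 46.6 CPM at E17 and 311, 216 and 298 CPM at E13. Hmg20b, part of a repressor complex of neuronal genes, was lower as well (-1.81 ± 0.09).

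Genes of cell cycle exit did not move together. Of 12 tested inhibitors and exit factors, 2 were higher and 7 lower, against 36.8% higher and 37.0% lower over all tested genes. The count of 2 was 1 with the E13 and E17 libraries alone and with a filter at 1 CPM, and it includes Cdkn2b, an inhibitor with 29 counts in total at E17 and 7 at E13, named after its values were seen. Btg2 and Gadd45g, which mark progenitors about to leave the cycle, fell by 2.25 and 2.54 on the log2 scale. Within the retinoblastoma family, pocket proteins that hold E2F factors, Rbl1 had 15.5, 12.6 and 15.2 CPM at E17 and 75.1, 71.6 and 77.2 CPM at E13, while Rbl2 had 49.6, 52.4 and 51.3 CPM at E17 and 37.2, 38.4 and 37.6 CPM at E13. Rb1 was not called (log2 difference -0.02, edgeR, adjusted p = 0.765). The CDK inhibitor Cdkn1b was not called either (0.16, adjusted p = 0.116).

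Promoters of these genes are shown because their members fell together. Known promoter elements of cell cycle genes are the cell cycle homology region (CHR), bound by the DREAM repressor complex and often placed near CCAAT boxes in genes of mitosis, and the E2F site of genes of DNA replication. RefSeq windows of 300 bases (250 before and 50 after the annotated start, GRCm38.p6) were available for 25 of the 30 mitosis genes and 26 of the 32 replication genes. In the 4 mitosis windows below, capitals mark CHR letters (TTTGAA or TTCGAA) and CCAAT, and in the 2 replication windows they mark E2F letters (TTTCCCGC or TTTGGCGC), each on either strand, and no marked motif shares bases with another. Cdc20 is at chr4:118437294-118437593 on the minus strand, Bub1 at chr2:127831810-127832109 on the minus strand, Aurka at chr2:172370521-172370820 on the minus strand, Ccnb2 at chr9:70421505-70421804 on the minus strand, Mcm3 at chr1:20820263-20820562 on the minus strand and Mcm5 at chr8:75109259-75109558 on the plus strand.
Cdc20: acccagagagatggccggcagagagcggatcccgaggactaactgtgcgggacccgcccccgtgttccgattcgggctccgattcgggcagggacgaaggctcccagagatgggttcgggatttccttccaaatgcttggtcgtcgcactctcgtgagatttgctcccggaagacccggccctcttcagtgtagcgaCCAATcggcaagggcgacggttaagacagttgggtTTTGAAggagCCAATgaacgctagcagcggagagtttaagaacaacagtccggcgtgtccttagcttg
Bub1: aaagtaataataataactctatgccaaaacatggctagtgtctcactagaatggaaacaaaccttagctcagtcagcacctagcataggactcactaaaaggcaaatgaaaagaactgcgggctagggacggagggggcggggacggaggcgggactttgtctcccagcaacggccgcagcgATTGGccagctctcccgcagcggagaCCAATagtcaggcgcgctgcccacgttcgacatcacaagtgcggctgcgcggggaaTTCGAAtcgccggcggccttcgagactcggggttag
Aurka: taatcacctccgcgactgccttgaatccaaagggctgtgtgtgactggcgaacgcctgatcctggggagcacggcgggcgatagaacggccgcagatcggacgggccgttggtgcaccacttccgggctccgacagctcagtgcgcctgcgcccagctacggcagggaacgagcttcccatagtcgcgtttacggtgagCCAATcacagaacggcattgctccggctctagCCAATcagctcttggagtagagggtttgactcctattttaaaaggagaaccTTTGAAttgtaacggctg
Ccnb2: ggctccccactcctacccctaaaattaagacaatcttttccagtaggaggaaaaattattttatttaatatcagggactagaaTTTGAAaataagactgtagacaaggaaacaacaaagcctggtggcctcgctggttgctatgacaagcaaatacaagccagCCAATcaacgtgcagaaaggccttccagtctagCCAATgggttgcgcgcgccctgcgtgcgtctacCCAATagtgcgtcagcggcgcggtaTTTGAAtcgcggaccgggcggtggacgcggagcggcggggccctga
Mcm3: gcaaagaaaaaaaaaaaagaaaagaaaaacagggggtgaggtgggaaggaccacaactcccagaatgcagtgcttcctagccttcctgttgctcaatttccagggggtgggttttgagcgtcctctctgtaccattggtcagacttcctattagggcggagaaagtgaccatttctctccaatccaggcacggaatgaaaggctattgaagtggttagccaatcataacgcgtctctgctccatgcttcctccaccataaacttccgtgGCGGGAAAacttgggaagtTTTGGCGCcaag
Mcm5: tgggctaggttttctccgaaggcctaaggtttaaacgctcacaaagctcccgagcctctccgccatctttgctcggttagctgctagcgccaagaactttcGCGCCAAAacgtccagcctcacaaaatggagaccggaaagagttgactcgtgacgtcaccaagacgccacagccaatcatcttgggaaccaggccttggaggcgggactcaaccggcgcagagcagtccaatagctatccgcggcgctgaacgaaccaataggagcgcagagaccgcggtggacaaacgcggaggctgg

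Aurka, a spindle kinase, had 13.0, 9.88 and 13.1 CPM at E17 and 77.5, 70.2 and 76.1 CPM at E13, and Ccnb2, a mitotic cyclin, 13.9, 10.5 and 16.8 CPM at E17 and 83.7, 68.3 and 81.3 CPM at E13. The MCM helicase subunit Mcm3 had 35.9, 28.3 and 40.1 CPM at E17 and 249, 215 and 261 CPM at E13, and Mcm5 had 44.4, 36.2 and 48.9 CPM at E17 and 258, 218 and 284 CPM at E13. In Cdc20 the CHR letters begin 18 bases before the start, between 2 copies of CCAAT that begin 53 and 8 bases before it.

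CHR letters occurred in 19 of the 25 mitosis windows (76.0%), against 19.2% of all 32851 windows in the table, and CCAAT in 19 (76.0%), against 37.4%. Both were present in 17 (68.0%), against 7.52%. E2F letters occurred in 1 of the 25 mitosis windows and in 10 of the 26 replication windows (38.5%), against 1.56% of all windows and 2.93% of the 11631 windows of tested protein-coding genes. CHR letters were found in 6 of the 26 replication windows (23.1%). Among the windows of tested protein-coding genes 13.5% held CHR letters, 38.5% CCAAT and 5.79% both. A match is a description of the letters in the window and was not tested as a bound site.

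The machinery that makes and processes RNA and protein was lower by smaller amounts. All 28 core spliceosome genes were lower, with a median log2 difference of -0.55 and a largest fall of -1.01 ± 0.09 for the Sm protein Snrpf. Ribosome biogenesis was lower in 20 of 24 genes (median -0.58), led by Dkc1, which modifies ribosomal RNA, at -1.37 ± 0.08 and the nucleolar Npm1 at -1.18 ± 0.09. Npm1 had 340, 318 and 356 CPM at E17 and 834, 648 and 820 CPM at E13. Cytosolic ribosomal proteins were lower in 43 of 49 genes and higher in none, with a median of -0.39 and a sum of 14045, 14051 and 14431 CPM at E17 and 19505, 16638 and 18702 CPM at E13. E13 B was the lowest E13 library for both groups. Ribosomal protein genes and Npm1 have many near-identical pseudogenes, so that their counts depend on how reads with several matches were handled.

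Protein turnover and energy genes changed less. Proteasome subunits were lower in 23 of 27 genes and higher in none (median -0.27), and the chaperonin and folding genes in 11 of 16 (median -0.24), among them the mitochondrial pair Hspd1 (-0.7 ± 0.06) and Hspe1 (-0.67 ± 0.09). Aminoacyl-tRNA synthetases split, with 5 higher and 10 lower of 20, against 36.8% higher and 37.0% lower over all tested genes. Of 37 nuclear genes of oxidative phosphorylation, 7 were higher, 9 lower and 21 not called, with log2 differences of -0.53 to 0.32. This split rested on scaling and on E13 B: it was 1 higher and 27 lower with library size alone, and 4 higher and 15 lower without E13 B. The summed levels of the group overlapped, at 4932 to 5000 CPM at E17 and 4939 to 5434 CPM at E13.

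Families with at least 15 tested genes that share a symbol stem were also counted, and those below were named after their values were seen. The shares over all tested genes were 36.8% higher and 37.0% lower. Other stems lay near these shares, such as Ccdc with 36 higher and 48 lower of 112 and Arhgap with 13 and 13 of 32. Of 21 tested nucleoporin genes (symbols starting with Nup) 20 were lower and none higher, and of 15 Integrator subunits (Ints) 12 were lower and 1 higher. Mitochondrial ribosomal proteins (Mrpl) were lower in 35 of 49 genes and higher in 3. Small nucleolar RNAs, which guide modification of ribosomal RNA and lie mostly in introns of host genes, were lower in 92 of 156 tested genes and higher in 5 (median -0.95). They carry no poly(A) tail, so reads of their hosts cannot be told apart from theirs in these poly(A)-selected libraries. The clustered protocadherins of the beta group (Pcdhb), adhesion proteins that give neurons a surface identity, were higher in 21 of 21 genes with a median of 2.29. They are near copies of each other, so that reads could be shared between them. Genes with a Rab symbol, the stem of GTPases of vesicle traffic, were higher in 46 and lower in 10 of 67 cases. Those with a Gpr symbol, the stem of orphan G-protein-coupled receptors, were higher in 38 and lower in 7 of 53. Both counts go by symbol, so genes of other roles can be among them.

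Of 22 splicing regulators known from neurons, 13 were higher and 3 lower, with a median of 0.75. Over all tested genes 36.8% were higher and 37.0% lower. Rbfox1 had 202, 184 and 203 CPM at E17 and 14.2, 22.3 and 16.4 CPM at E13 (log2 difference 3.48 ± 0.13; edgeR, adjusted p = 1.3e-10). Celf6 and Celf4 had log2 differences of 2.4 ± 0.13 and 2.26 ± 0.09. Ptbp1, the repressor of neuronal exons in progenitors, had 101, 91.1 and 109 CPM at E17 and 392, 374 and 377 CPM at E13. The number of lower members depended on scaling and was 8 with library size alone.

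**Figure D3:**
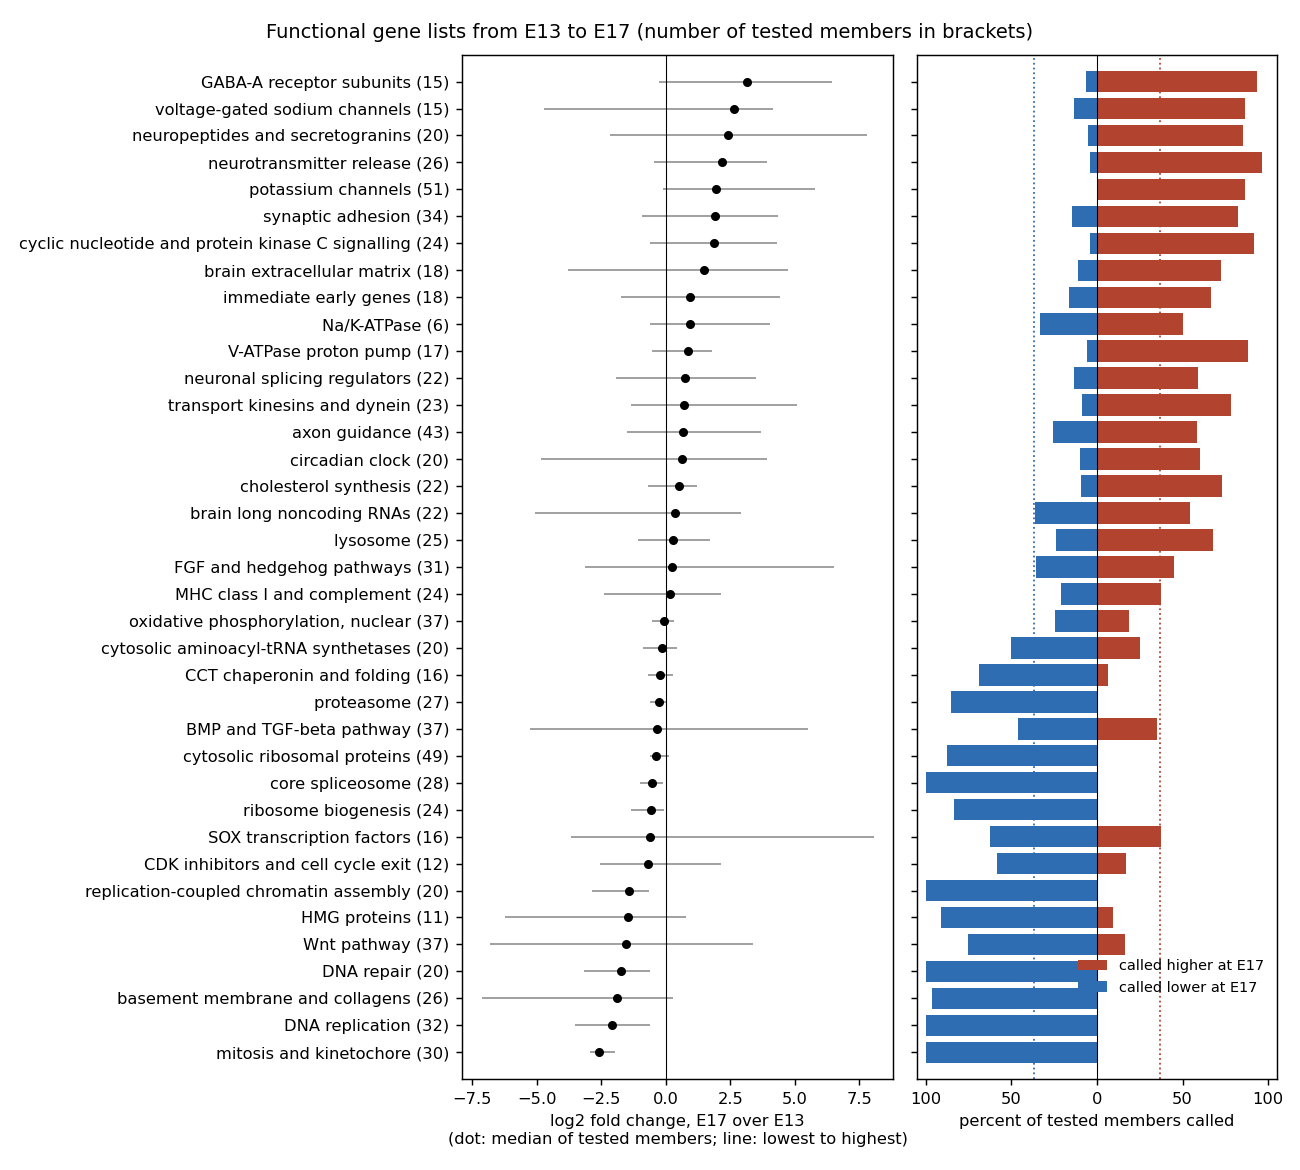
For 37 functional gene lists, the left panel gives the median log2 fold change of E17 over E13 (dot) and the range from the lowest to the highest member (line), and the right panel the percent of tested members called higher (red, to the right) or lower (blue, to the left). Dotted lines mark the shares over all tested genes (36.8% higher, 37.0% lower); GABA-A receptor subunits lie at the top with a median of 3.13 and mitosis at the bottom with -2.6.

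Ion channels rose broadly. Of 51 tested potassium channel genes, which set resting potential and repolarise the membrane, 44 were called higher and none lower, against 36.8% higher over all tested genes, and the median was 1.94. Kcnab1, an auxiliary subunit, had 16.8, 20.9 and 16.5 CPM at E17 and 0.503, 0.197 and 0.278 CPM at E13 (log2 difference 5.76 ± 0.37; edgeR, adjusted p = 3.28e-08). The leak channel Kcnk9 and the Kv4 partner Kcnip2 followed at 5.07 ± 0.45 and 4.94 ± 0.17. Kcnk9 had 3.98, 4.01 and 2.93 CPM at E17 and 0.106, 0.14 and 0.0617 CPM at E13. Kcnip1 had the lowest value of the list (-0.1) and was not called. Kcne2, an auxiliary subunit counted with the choroid plexus markers and not in this list, was called lower (log2 difference -6.7, edgeR, adjusted p = 0.00426).

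Voltage-gated sodium channels and their partners were higher in 13 of 15 genes (median 2.63). Scn2a, the main sodium channel of immature axons, had 159, 172 and 155 CPM at E17 and 8.86, 9.6 and 9.35 CPM at E13 (log2 difference 4.13 ± 0.08; edgeR, adjusted p = 1.08e-12). The intracellular FGF relative Fgf12, which binds sodium channels, had 4.04 ± 0.13. Scn9a, a channel known from sensory neurons, had 14.2, 13.4 and 11.4 CPM at E17 and 0.741, 0.449 and 1.02 CPM at E13 (log2 difference 4.14 ± 0.2).

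The list of GABA-A receptor and chloride transporter genes had the largest median of the 37 functional lists. Of 15 tested GABA-A receptor subunits and chloride genes 14 were higher and 1 lower (median 3.13). Gabrg3, a gamma subunit, had 11.3, 12.3 and 9.9 CPM at E17 and 0.132, 0.281 and 0.309 CPM at E13 (log2 difference 5.54 ± 0.26; edgeR, adjusted p = 2.95e-10). Gabra5, an alpha subunit that is mostly extrasynaptic, had 42.6, 56.2 and 30.1 CPM at E17 and 1.38, 2.08 and 2.01 CPM at E13. Slc12a5 (KCC2), which exports chloride, had 40.8, 45.4 and 35.9 CPM at E17 and 3.81, 5.17 and 5.25 CPM at E13, while Slc12a2 (NKCC1), which imports it, had 65.5, 69.4 and 60.7 CPM at E17 and 80.1, 77.3 and 74.6 CPM at E13. The log2 differences were 3.1 ± 0.19 and -0.25 ± 0.06. Of 6 sodium pump subunits 3 were higher and 2 lower, for so short a list near the 36.8% and 37.0% of all tested genes. Among them were the beta subunits Atp1b1 and Atp1b2 (4.05 ± 0.2 and 1.37 ± 0.15) and, on the lower side, Atp1b3 (-0.61 ± 0.07).

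Transmitter release genes were higher in 25 of 26 cases (median 2.17), with a sum of 4946, 5298 and 4847 CPM at E17 and 1163, 1381 and 1232 CPM at E13. Rims1, an active zone scaffold, had 67.8, 71.5 and 63.5 CPM at E17 and 4.34, 4.72 and 4.57 CPM at E13 (log2 difference 3.9 ± 0.08; edgeR, adjusted p = 2.61e-12). The calcium sensor Syt1 rose by 3.43 ± 0.12 and Syt4, a related vesicle protein, by 3.62 ± 0.19. Unc13b, a vesicle priming factor, was the member called lower (-0.45 ± 0.06). Synaptic adhesion genes were higher in 28 and lower in 5 of 34 (median 1.89), led by Cntnap5a (4.34 ± 0.17), the presynaptic neurexin Nrxn3 (3.97 ± 0.28) and the postsynaptic Lrrtm2 (3.82 ± 0.16). Of the members called lower, Cntnap2 had 60.8, 58.0 and 63.6 CPM at E17 and 121, 88.6 and 124 CPM at E13. The count of 5 was 2 without E17 A and 3 without E17 B or without E13 B.

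Second-messenger signalling was higher as well. Of 24 genes of cyclic nucleotide and protein kinase C signalling 22 were higher and 1 lower (median 1.86). Prkar1b, a regulatory subunit of protein kinase A, had 317, 321 and 296 CPM at E17 and 14.9, 16.5 and 16.4 CPM at E13 (log2 difference 4.29 ± 0.08; edgeR, adjusted p = 1.08e-12). Adcy1, a calmodulin-stimulated adenylyl cyclase, had 629, 638 and 571 CPM at E17 and 35.3, 53.6 and 38.7 CPM at E13. Ptk2b, a calcium-activated tyrosine kinase named for its step contrast, had 40.3, 51.1 and 29.9 CPM at E17 and 0.556, 0.505 and 0.617 CPM at E13.

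Neuropeptides, secretogranins and their processing enzymes were higher in 17 of 20 genes (median 2.39). Besides Nts and Npy, Vgf, a secreted neuronal precursor, had 11.4, 16.3 and 8.7 CPM at E17 and 0.238, 0.393 and 0.401 CPM at E13. Of 12 interneuron and ventral telencephalon markers, which share Npy and Sst with the peptide list, 10 were called higher, with a sum of 456, 373 and 426 CPM at E17 and 21.4, 28.7 and 67.5 CPM at E13. E13 C was the highest E13 library of this list, and the part of interneurons in the peptide and GABA-A results was not tested.

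Immediate early genes, which neuronal activity induces, divided. Of 18 tested, 12 were higher and 3 lower (median 0.94), against 36.8% higher and 37.0% lower over all tested genes. Nr4a3 had 124, 194 and 116 CPM at E17 and 18.1, 35.3 and 15.2 CPM at E13 (log2 difference 2.66 ± 0.31), and Fosl2 78.5, 132 and 73.7 CPM at E17 and 12.6, 21.8 and 12.6 CPM at E13. The B library was the highest of its age for both. Jun, Ier2 and Arc were lower (-1.68 ± 0.06, -1.74 ± 0.07 and -1.47 ± 0.19). Fos lay at 0.586 to 1.11 CPM at E17 and 0.635 to 0.73 CPM at E13 and was not called (edgeR, adjusted p = 0.558).

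Transport along the axon and acid organelles gained RNA. Transport kinesins and dynein genes were higher in 18 and lower in 2 of 23, and their sum was 9953 to 10162 CPM at E17 and 5268 to 6333 CPM at E13. Dync1i1, a dynein intermediate chain of neurons, had 273, 257 and 264 CPM at E17 and 4.97, 11.6 and 6.64 CPM at E13 (log2 difference 5.1 ± 0.23; edgeR, adjusted p = 5.44e-09). Of 17 subunits of the V-ATPase, the proton pump of synaptic vesicles and lysosomes, 15 were higher and 1 lower (median 0.87). Within its membrane sector, Atp6v0a1 had 198, 211 and 193 CPM at E17 and 72.7, 96.0 and 73.1 CPM at E13 while Atp6v0a2 had 55.4, 52.2 and 52.4 CPM at E17 and 73.4, 82.6 and 77.0 CPM at E13. Lysosomal genes were higher in 17 and lower in 6 of 25, and 10 were higher with library size alone. Among the 25 the protease Ctsf rose by 1.7 ± 0.09 and the peptidase Tpp1 fell by 1.07 on the log2 scale. For each of these lists the shares over all tested genes were 36.8% higher and 37.0% lower.

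Cholesterol synthesis was higher in 16 and lower in 2 of 22 genes (median 0.5). Hmgcs1, the synthase that feeds the pathway, had 846, 990 and 740 CPM at E17 and 350, 384 and 388 CPM at E13 (log2 difference 1.2 ± 0.09; edgeR, adjusted p = 3.06e-08), and the largest of the other rises were Mvd at 1.08 ± 0.11 and Fdft1 at 1.0 ± 0.07. Circadian clock genes were higher in 12 and lower in 2 of 20, against 36.8% higher and 37.0% lower over all tested genes. Npas2, a partner of BMAL1, had 8.79, 9.7 and 6.45 CPM at E17 and 0.423, 0.87 and 0.339 CPM at E13. The hour of collection is not given in the labels.

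Extracellular matrix genes moved in both directions. Basement membrane proteins and collagens were lower in 25 of 26 genes and higher in none (median -1.9, sum 1117 to 1250 CPM at E17 and 3407 to 4159 CPM at E13). The largest falls were Col1a1 (-7.14 ± 0.69), Col3a1 (-6.56 ± 0.44) and Col1a2 (-5.67 ± 0.55), which are all members of the meningeal marker list as well. Endothelial markers were lower in 7 and higher in 3 of 10, against 37.0% lower and 36.8% higher over all tested genes. Matrix of the brain parenchyma was higher in 13 and lower in 2 of 18 genes (median 1.46). The glycoprotein Tnc had 474, 579 and 405 CPM at E17 and 13.2, 25.3 and 16.2 CPM at E13 (log2 difference 4.74 ± 0.28; edgeR, adjusted p = 1.03e-07), and Tnr, its relative in perineuronal matrix, 198, 163 and 160 CPM at E17 and 5.26, 8.34 and 6.91 CPM at E13. Hapln1, which links hyaluronan to proteoglycans, was lower (-3.8 ± 0.52). The count of 2 lower genes was 1 without any of E17 A, E17 C, E13 A or E13 C.

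Axon guidance genes moved in both directions, with 25 higher and 11 lower of 43, against 36.8% higher and 37.0% lower over all tested genes. Ntng1, a netrin-G adhesion ligand, rose by 3.7 ± 0.25, the netrin receptor Unc5c by 2.88 ± 0.16 and the semaphorin Sema3e by 2.76 ± 0.19. Efnb1, an ephrin, Slit2, a repellent, and Sema5a were lower (-1.51 ± 0.12, -1.5 ± 0.14 and -1.39 ± 0.14). Robo3, the receptor that lets commissural axons cross the midline, had 1.17, 1.75 and 0.516 CPM at E17 and 50.5, 40.6 and 58.0 CPM at E13 (log2 difference -5.52 ± 0.31; edgeR, adjusted p = 1.74e-08).

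Wnt signalling, which patterns the medial cortex and maintains progenitors, was lower in 28 and higher in 6 of 37 genes (median -1.54). Besides Wnt8b, the ligand Wnt3a had 0.0379, 0.43 and 0 CPM at E17 and 11.8, 6.85 and 8.15 CPM at E13, and Rspo1, a secreted amplifier of Wnt signals, 0.454, 0.895 and 0.305 CPM at E17 and 28.5, 15.3 and 21.4 CPM at E13. For these 3 secreted factors E17 B was the highest E17 library and E13 B the lowest E13 library. E17 B was also the highest E17 library for the choroid plexus sum. The effectors Lef1 and Tcf7l1 were lower (-3.44 and -3.83), as was the feedback gene Axin2 (-1.68). Wnt7b, a ligand of cortical neurons, had 208, 171 and 226 CPM at E17 and 173, 168 and 168 CPM at E13 and was not called (edgeR, adjusted p = 0.087). Wnt3, another ligand, had 2.95, 3.08 and 2.46 CPM at E17 and 0.317, 0.14 and 0.339 CPM at E13.

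In the BMP and TGF-beta pathway 13 genes were higher and 17 lower of 37, shares near those of all tested genes (36.8% higher and 37.0% lower). The ligands went apart: Bmp4 and Bmp5 of the dorsal midline were lower (-5.28 ± 0.71 and -2.75 ± 0.18), while Inhba, an activin subunit, had 11.3, 8.56 and 8.93 CPM at E17 and 0.132, 0.253 and 0.247 CPM at E13. So did the targets: Id4 had 36.1, 23.8 and 34.6 CPM at E17 and 376, 311 and 369 CPM at E13, and Id2 309, 333 and 359 CPM at E17 and 56.1, 61.3 and 53.5 CPM at E13. The FGF and hedgehog pathways, with 14 higher and 11 lower of 31, also lay near these shares, with the ligand Fgf10 at 7.99, 8.66 and 7.9 CPM at E17 and 0.0529, 0.112 and 0.0926 CPM at E13, and the receptor Fgfr3 of progenitors at 41.1, 53.7 and 48.9 CPM at E17 and 325, 317 and 311 CPM at E13.

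All 16 listed SOX transcription factors were called, 6 higher and 10 lower, against 36.8% higher and 37.0% lower over all tested genes. Of all 19 tested genes with a Sox symbol, which include the noncoding Sox2ot, 8 were higher and 10 lower. Progenitor members were lower, with Sox3 at 5.38, 5.87 and 7.15 CPM at E17 and 80.7, 76.0 and 82.2 CPM at E13, and Sox9 at -1.94 ± 0.1. Sox4, a factor of new neurons, had 1234, 1029 and 1416 CPM at E17 and 628, 711 and 658 CPM at E13. Long noncoding RNAs of the brain were higher in 12 and lower in 8 of 22, a share of lower genes near the 37.0% of all tested genes. The imprinted Meg3 had 535, 522 and 392 CPM at E17 and 62.0, 99.7 and 90.0 CPM at E13, and Rmst 0.871, 1.86 and 1.06 CPM at E17 and 52.1, 32.2 and 41.0 CPM at E13. In the list of MHC class I and complement genes, 9 were higher, 5 lower and 10 not called of 24 (median 0.16), a share of higher genes near the 36.8% of all tested genes. With library size alone 5 were higher. Of 10 microglial markers 3 were higher and 1 lower, against 36.8% and 37.0% of all tested genes.

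Switches between related genes were read within each library, as the log2 ratio of their CPM. In each pair 1 gene was labelled broadly expressed and the other neuronal. These labels were not tested here, and Aldoc and Ezh1, both labelled neuronal, are not particular to neurons. In 13 of 22 pairs the gene labelled broad was called lower and the gene labelled neuronal higher. In 4 pairs both were higher, in 1 both were lower, and in 4 at least 1 gene was not called. All 22 ratios were apart between the ages, where 76.1% of single tested genes were apart. The share for ratios of other gene pairs was not computed. In 21 of the pairs the ratio shifted toward the gene labelled neuronal. For Elavl4 over Elavl1 the shift was small, from -0.09 to 0.03 at E13 to 0.07 to 0.13 at E17. The exception was Aldoc over Aldoa, aldolases of glycolysis, at -0.46 to -0.22 at E17 and 0.1 to 0.51 at E13.

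In several pairs the ratio lay above 0 at E17 and, in all or most libraries, below 0 at E13. For Actl6b over Actl6a, subunits of the BAF chromatin remodeller, the libraries gave 1.81, 2.24 and 1.76 at E17 and -2.55, -1.97 and -2.36 at E13. For Ss18l1 over Ss18, also of BAF, the range was 2.21 to 2.31 at E17 and -0.98 to -0.6 at E13. Snap25 over Snap23, SNAREs of membrane fusion, gave 4.03, 4.2 and 4.12 at E17 and -0.69, 0.08 and -0.42 at E13, with Snap25 at 181, 214 and 184 CPM at E17 and 22.3, 31.5 and 27.5 CPM at E13 and Snap23 at 11.1, 11.7 and 10.6 CPM at E17 and 36.0, 29.8 and 36.8 CPM at E13. In this pair E13 B was the E13 library above 0 and nearest to E17. Dnm1 over Dnm2, dynamins of endocytosis, gave 0.45 to 0.8 at E17 and -2.25 to -2.1 at E13.

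Other pairs shifted without the ratio passing 0. For Ezh1 over Ezh2, methyltransferases of Polycomb, the ratio was -1.93 to -1.4 at E17 and -4.54 to -4.02 at E13, and for the enolases Eno2 over Eno1 -1.65 to -1.33 at E17 and -4.77 to -4.39 at E13. Gng3 over Gng5, G-protein gamma subunits, stood at 4.61 to 4.93 at E17 and 0.52 to 0.7 at E13. The ratio of Kif5a over Kif5b, transport kinesins, did pass 0, at 1.33 to 1.39 at E17 and -1.36 to -0.61 at E13. In this pair Kif5b was not called (log2 difference -0.05, edgeR, adjusted p = 0.323), but it was called lower with library size alone (adjusted p = 0.000316). The same held for Celf1 in the pair with Celf4 (adjusted p = 0.282 and, with library size alone, 0.00023). Tuba1a and Tuba1b, and Eno1 and its processed copies, are nearly identical in coding sequence, and reads shared between such copies leave these ratios uncertain. CPM ratios between genes also carry their transcript lengths, which are the same at both ages only if isoforms do not change.

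**Figure D4:**
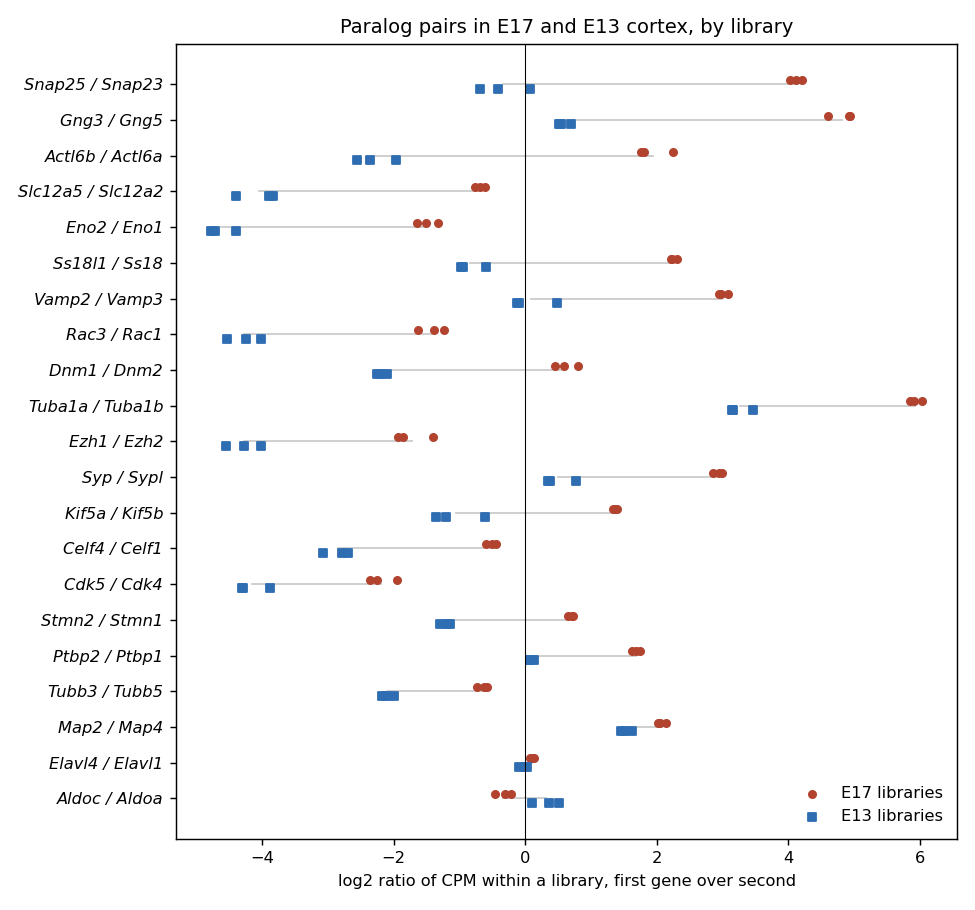
Log2 ratio of CPM within a library, gene labelled neuronal over gene labelled broadly expressed, for 21 pairs. Red circles are the E17 libraries and blue squares the E13 libraries, and the grey line joins the means. Every pair is separated by age, from Snap25 and Snap23 at the top to Aldoc and Aldoa at the bottom, where the E17 libraries lie to the left.

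The span of a gene in the genome, which no list used, went with its change. Spans were taken from GENCODE M21, which holds 50376 of the 50600 identifiers, for 14781 tested protein-coding genes put into 10 groups of nearly equal size. In the group with the longest spans (144 kb and more) 60.1% were called higher and 23.5% lower, with a median log2 difference of 0.7. In the group with the shortest spans (up to 4.78 kb) 32.4% were higher and 39.8% lower, with a median of -0.1. Through the 7 shortest groups the median stayed between -0.17 and -0.05. Of 220 genes over 500 kb, 163 were higher and 28 lower, and their median was 1.73. Long genes also have more exon sequence (median 8512 bases in the longest group and 1879 in the shortest), and neuronal adhesion and channel genes are known to be long, so span cannot be told apart from what the genes do.

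**Figure D5:**
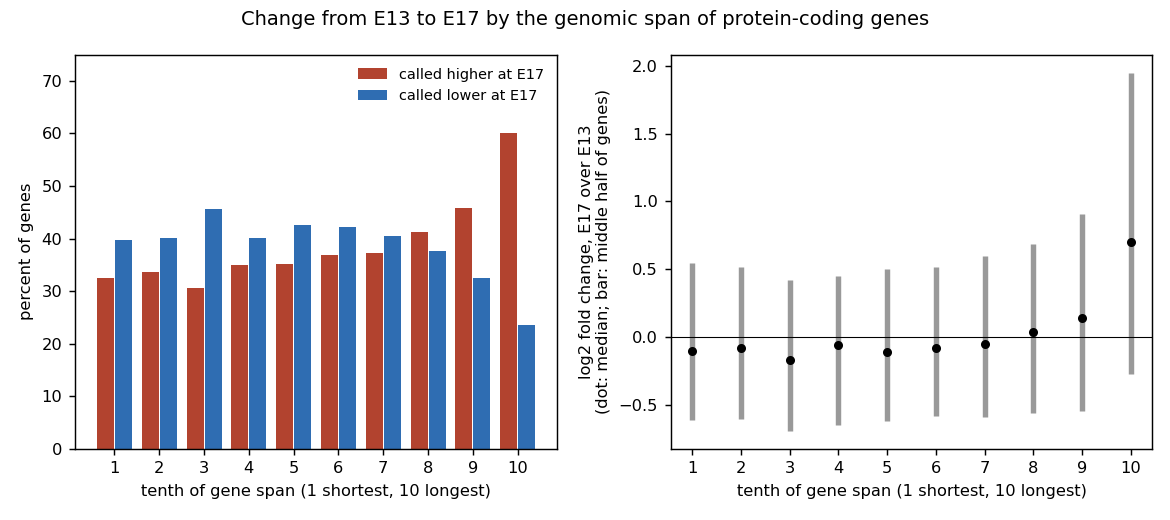
Tested protein-coding genes in 10 groups by genomic span, shortest to longest. Left, percent called higher (red) or lower (blue) at E17; right, median log2 fold change of E17 over E13 (dot) with the range between the quartiles (bar). The longest group stands apart, with 60.1% higher.

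The change from E13 to E17 was tested against the neighbouring steps of the series, as a difference per step and not per day, since the steps differ in length. From E17 to P1 the log2 change differed from that of E13 to E17 for 9884 genes (55.4%), 5507 with a higher and 4377 with a lower value in the earlier step. With library size alone the split was 4471 and 5674. Against the step from E11 to E13 it differed for 8697 genes (48.7%), 4032 higher and 4665 lower (3194 and 6029 with library size alone).

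All 30 mitosis genes had a lower log2 change in this step than in the step before and in the step after, and their mean summed level was 6760 CPM at E11, 5844 CPM at E13, 970 CPM at E17 and 378 CPM at P1. For replication the sum was 5216, 4098, 1003 and 618 CPM at the 4 ages. Transmitter release genes summed to 655, 1259, 5030 and 7163 CPM, and 24 of 26 changed differently from the step to P1. The mean sum of axon guidance genes was highest at E17, at 3542, 5176, 7080 and 5539 CPM for E11, E13, E17 and P1. The SOX factors gave 1850, 2786, 3375 and 1904 CPM, but their E17 and E13 libraries overlapped (2983 to 3805 CPM at E17 and 2575 to 3055 CPM at E13).

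Robo3 had the fourth largest contrast against the step to P1. It averaged 73.4 ± 15.5 CPM at E11, 49.7 ± 8.71 CPM at E13, 1.15 ± 0.62 CPM at E17 and 14.9 ± 1.15 CPM at P1 (SD, n = 3 each), a contrast of -9.31 ± 0.58 on the log2 scale (edgeR, adjusted p = 2.79e-07). Its lowest age was thus E17. Olig1 averaged 0.479 ± 0.364 CPM at E11, 0.177 ± 0.142 CPM at E13, 38.9 ± 14.3 CPM at E17 and 106 ± 4.27 CPM at P1, a contrast of 9.26 ± 1.46 against the step from E11 (adjusted p = 0.000454). Grin3a and Ptk2b had contrasts of 6.85 ± 0.63 and 6.91 ± 0.58 against the same step. Cldn11 had 13.2 ± 8.1, 30.4 ± 4.69, 0.0797 ± 0.0369 and 0.8 ± 0.537 CPM at the 4 ages, a contrast of -11.69 ± 1.96 against the step to P1. Other large contrasts belonged to embryonic globins, Ttr, Nts, Stum and the connective tissue genes Col1a1, Col3a1, Col6a1, Lum and Lox.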

How the data were processed

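Poly(A)+ RNA of 1 µg total RNA from each cortex was sequenced with a strand-specific kit as 75 bp single reads, per the labels' protocols. The authors deposited raw read counts, unnormalized, for 50600 Ensembl gene identifiers, of which 224 found no symbol in the reference table (0.0674 to 0.0877% of the counts of an E13 or E17 library). The submitters' processing notes list STAR 2.5.2b, HTSeq 0.5.3, bcl2fastq 2.18, DESeq2 1.8.1 and SAMtools, without their roles. Neither the build nor the annotation nor the strand setting of the counting was stated there, and reads of overlapping genes cannot be assigned with certainty.

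Groups were the ages of the labels, and animals came from different litters. In R 4.3.3, edgeR 4.0.16 kept 17847 genes by filterByExpr with age as group and a minimum count of 10, scaled the libraries with TMM factors (0.93 to 0.938 at E17 and 1.05 to 1.07 at E13) and fitted its robust quasi-likelihood model to all 12 libraries, with a coefficient for each age (common biological coefficient of variation 0.106). Two-sided p-values were adjusted over all 17847 genes (Benjamini-Hochberg), and the threshold was 0.05. Step contrasts come from the same fit. CPM are counts per 1000000 of the TMM-scaled library. Bounds and the floor of 3 counts cover counting error only. The fit was tested on simulated data. Within an age, libraries differed by a chi-squared of 10.39 to 29.81 per degree of freedom over genes, so none was a copy of another.

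The genes compared, 37 functional and 8 tissue lists and 22 gene pairs were chosen with earlier results of these data known, and support nothing by themselves; lists are described by counts and medians without a set test. Genes were named by rule: the 12 largest rises and falls with a mean of at least 20 CPM, no overlap between the ages and a call kept in each fit without 1 library, the 10 largest gains and losses in CPM, up to 3 rises and falls per list with at least 1 CPM, all pairs, and the 10 largest step contrasts of each kind; sex-linked markers and unnamed transcripts were left out, and some genes that meet the rule are not reported here. Further names were chosen after their values were seen (Fos, Kcnip1, Wnt7b, Lef1, Tcf7l1, Axin2, Rb1, Cdkn1b, the genes near 0 at 1 age and those with printed promoters). The symbol families were also named after their values were seen. Promoters are the first listed RefSeq window of a gene, matched by symbol or synonym; a comparison of promoter composition over all genes was void, since 78.7% of tested protein-coding genes had a window. Alternatives were RLE, upper-quartile and library-size scaling, other filters on low counts, the 6 libraries alone, a replicate block, DESeq2 1.42.0, limma-voom (limma 3.58.1), genes of attached tissues removed, and each library left out.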

Additional observations from a re-analysis of the deposited data

How the results depend on the processing

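The counts of called genes, of genes called with at least 2-fold differences and of genes in both step contrasts stayed within 1.5 times their value under all 16 alternatives, except that the step contrasts could not be fitted with the 6 libraries alone. Without 1 library of E17 or E13 they ranged over 12527 to 13004 called genes, 6030 to 6305 with at least 2-fold differences, 8658 to 10187 against the step to P1 and 7383 to 8325 against the step from E11. Of the 13174 calls, 11475 (87.1%) were kept in all 6 such fits. DESeq2 called 12804 genes and limma-voom 13140.

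The letters A, B and C did not pair libraries across ages: deviations of same-letter libraries correlated at -0.343, 0.0128 and 0.00651. With a replicate block 12975 genes were called.

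Scaling moved the directions: by library size alone 39.8% of calls were higher, against 49.8% with TMM and 45.0% with upper-quartile factors. Of 264 named genes 249 kept their call throughout. Calls were lost with limma-voom for Ttr, Fgf17, Kcne2 and Hbb-bh1, with library size alone for Dnaja1, Cox6a1 and Cox7a2, and in several settings for Flrt3, Nptx2, Dlx6os1 and C1qa. Aldoc was called lower with the 6 libraries alone (adjusted p = 2.01e-06, edgeR), against 0.122. In counts of list members, library size alone gave 4 lower kinesin and dynein genes against 2, 4 lower cholesterol genes against 2 and 3 higher tRNA synthetases against 5, and no low-count filter gave 7 lower guidance genes against 11. Without genes of meninges, choroid plexus and red cells 13159 of 17806 genes were called. The cause of these shifts was not tested. Of the uncalled genes, 1523 lay under 1 CPM at both ages.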
